A study of Homo sapiens with 36 samples.

Results

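The 9 genes described here encode the transcription factor NRF2 (NFE2L2) and 8 enzymes or transporters that are commonly listed among its targets, out of 60725 genes in the deposited tables. GCLC and GCLM encode the catalytic and modifier subunits of glutamate-cysteine ligase, the rate-limiting step of glutathione synthesis. SLC7A11 imports the cystine that supplies its cysteine. TXNRD1 and SRXN1 reduce thioredoxin and over-oxidized peroxiredoxins, NQO1 and HMOX1 handle quinones and heme, and ME1 supplies NADPH. The list was given together with the observation that GCLC falls with tamoxifen and rises with STAT3 siRNA, so the members were chosen by those readings. For all 9 genes the comparison of tamoxifen with ethanol under control siRNA, and that of STAT3 siRNA with control siRNA under tamoxifen, are therefore descriptions without a p-value. The same holds for the differences of knockdown effects between treatments, which contain the first of those comparisons, and for GCLC in every comparison of tamoxifen with ethanol and in every comparison that includes STAT3 siRNA.

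NRF2 is made continuously and destroyed through KEAP1, an adaptor that hands it to a ubiquitin ligase. When reactive molecules modify KEAP1, NRF2 escapes, pairs with a small MAF protein and binds antioxidant response elements near genes for glutathione, thioredoxin and detoxification. Its activity is set largely at the protein level, so the NFE2L2 message is a poor stand-in for it, and the messages of its targets are what RNA sequencing can read.

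RNA was sequenced in 36 libraries, in 18 groups of 2, to ask which genes depend on YAP, TAZ, STAT3 and JUNB in transformed and non-transformed breast cells. In the immortalized breast epithelial line MCF-10A ER-Src, v-Src is fused to the ligand-binding part of the estrogen receptor, so tamoxifen (TAM) activates the oncoprotein and ethanol (ETH) is the vehicle. Its 10 groups received control siRNA (Ctrli) or siRNA pools against YAP (YAPi), TAZ (TAZi), STAT3 (STAT3i) or JUNB (JUNBi), each under ETH and under TAM. MDA-MB-231 is a triple-negative breast cancer line whose sample titles name no treatment. It received Ctrli, YAPi, TAZi, YAPi_TAZi and TEADi (against the TEAD family) in set 1 and a separate Ctrli, JUNBi and STAT3i in set 2. For the transformed state the labels name tamoxifen together with AZD0530, an inhibitor of Src kinases, and they give no treatment time for these libraries. Each ER-Src or MDA-MB-231 group comes from 1 line, and the labels do not say whether the 2 libraries of a group came from separate cultures, so p-values measure the spread between these libraries.

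The antioxidant response element has the core TGACNNNGC. One form of it, TGACTCAGC, holds the AP-1 site TGACTCA within it, which matters here because JUNB is an AP-1 protein. Both were searched on both strands upstream of RefSeq start sites (GRCh38). The core is common: within 5 kb upstream, 83.3% of 15843 genes held it, whereas 6.7% held TGACTCAGC. Of the 7 members with an entry in the promoter table (all except SLC7A11 and HMOX1), GCLC, ME1 and NQO1 held TGACTCAGC in that stretch. The GCLC copy lies 3156 bases before its start site at chr6:53548233-53548273, the ME1 copy 137 bases before its start at chr6:83431164-83431204 and the NQO1 copy 455 bases before its start at chr16:69726991-69727031. GCLM and TXNRD1 held forms of the core without the AP-1 site close to a start, 34 bases before it at chr1:93909440-93909480 and 102 bases before it at chr12:104286914-104286954. These 5 are shown 5′ to 3′ on the strand that carries the motif, which is the plus strand for GCLC and GCLM and the minus strand for the others, with the motif in capitals.
GCLC: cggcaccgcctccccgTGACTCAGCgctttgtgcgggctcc
ME1: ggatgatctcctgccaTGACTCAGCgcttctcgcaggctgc
NQO1: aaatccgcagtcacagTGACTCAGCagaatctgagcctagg
GCLM: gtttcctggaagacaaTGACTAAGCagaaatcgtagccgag
TXNRD1: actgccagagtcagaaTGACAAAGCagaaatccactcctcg
No binding was measured in these files, and a match is a description of the letters only. SRXN1 had no core in its 5 kb and NFE2L2 had 1, which says nothing more than that these letters are or are not in that window.

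Depth, the total of expected counts, was 6419720 to 19161700 in ER-Src, 13456784 and 13534560 in the set 1 controls, 1411304 to 2784605 in the set 1 knockdowns and 7290499 to 18076158 in set 2. Each ER-Src siRNA lowered its own target by 1.16 to 2.66 on the log2 scale, although JUNB under ETH missed the threshold (adjusted p = 0.064, DESeq2). None of 8 basal epithelial markers was under 1 TPM throughout ER-Src, and their summed TPM was 2280 to 4705, whereas 7 of the 8 stayed under 1 TPM in the MDA-MB-231 controls. The set 1 controls were another type of library from the set 1 knockdowns: RNAs without a poly(A) tail took 0.00278% and 0.00407% of their gene counts, against 8.71% to 11.8%. In that set the effect of a knockdown and that of the library type cannot be told apart. Within ER-Src, YAPi replicate 2 stood apart for these genes. It held more of all 9 messages than YAPi replicate 1, by 1.07 to 3.28 times under ETH and 1.03 to 2.58 times under TAM, while the same ratio ranged from 0.68 to 1.47 in the other 8 groups.

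Levels of different genes were compared in TPM, which is per length, and within 1 group. In Ctrli under ETH, NQO1 was the most abundant message at 203.5 ± 25.6 TPM (SD, n = 2), followed by GCLC at 52.97 ± 4.7 TPM and TXNRD1 at 48.81 ± 7.7 TPM, whose ranges overlapped. NFE2L2 at 17.45 TPM, SRXN1 at 13.12 TPM and GCLM at 8.905 TPM came next. ME1 at 5.45 TPM and SLC7A11 at 4.25 TPM were low, and HMOX1 was the lowest at 0.925 TPM. The TPM of the catalytic subunit GCLC was thus several times that of its partner GCLM in this group. Their mean expected counts were 1440 and 406.5, so the TPM ratio also depends on the lengths that RSEM assigned to each gene. In the set 1 controls of MDA-MB-231 their order was the opposite, with GCLM at 40.93 TPM and GCLC at 13.58 TPM. RSEM assigned GCLC 3067 and 3167 bases there, and those controls are another type of library. In the set 1 knockdowns mean TPM was higher for GCLM in YAPi, TAZi and TEADi. In YAPi_TAZi it was not, with GCLM at 31.47 and GCLC at 33.7 TPM. A difference between the lines was not tested. In the set 2 controls GCLC was barely present at 0.75 TPM while NQO1 remained the most abundant member at 334.9 TPM. Apart from the correlations with GCLC given further below, TPM was not used to compare groups because its overall scale differed between libraries. The median gene lay 0.10 and 0.34 below the all-library median in Ctrli ETH but 0.48 and 0.58 below it in Ctrli TAM (log2). The gene lengths that RSEM assigned to GCLC also differed, being 1118 and 1082 bases in Ctrli ETH and 1391 and 1684 bases in Ctrli TAM. Comparisons between groups therefore use DESeq2-normalized counts, with 1 scale for ER-Src and 1 for each MDA-MB-231 set.

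GCLC was lower under TAM than under ETH in all 5 siRNA arms, a description because the fall of GCLC with tamoxifen is among the readings by which the genes were chosen. Of the other members, TXNRD1, NQO1 and SLC7A11 fell and HMOX1 rose in some arms. Normalized counts of GCLC in Ctrli were 1553.8 and 1561.0 under ETH and 764.9 and 736.8 under TAM. This is 2.05-fold lower under TAM (log2 fold change -1.04 ± 0.14, SE). In these bulk libraries, fewer cells carrying a message and less of it per cell cannot be told apart. In YAPi the counts were 2336.6 and 2511.0 under ETH against 959.2 and 1058.9 under TAM, 2.4-fold lower (-1.26 ± 0.13). In TAZi they were 1792.7 and 1928.0 against 827.0 and 809.9, 2.28-fold lower (-1.19 ± 0.13). In JUNBi they were 2178.3 and 1907.3 against 837.9 and 775.4, 2.52-fold lower (-1.33 ± 0.24). In STAT3i the counts were 2081.1 and 1870.6 under ETH and 1608.0 and 1417.3 under TAM, a log2 fold change of -0.39 ± 0.18. TAM and ETH libraries of GCLC did not overlap in any of the 5 arms.

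GCLM, the modifier subunit, did not follow its partner. Its normalized counts in Ctrli were 443.6 and 434.6 under ETH and 428.8 and 468.7 under TAM, with overlapping groups and a log2 fold change of 0.04 ± 0.20. GCLM was not called for TAM in any other arm, where its fold changes ran from -0.25 ± 0.22 in STAT3i to 0.34 ± 0.17 in TAZi (adjusted p = 1 and 0.28, DESeq2). The difference between the responses of the 2 subunits was not tested. SLC7A11, the cystine transporter, had counts of 785.5 and 646.7 under ETH and 415.0 and 339.7 under TAM in Ctrli, a 1.87-fold lower level (log2 fold change -0.90 ± 0.20). In TAZi its counts were 776.2 and 849.5 against 436.4 and 551.0, a 1.65-fold fall (adjusted p = 0.0011, DESeq2). A call here is an adjusted p under 0.01, and when a library was left out the spread within its group was taken from the other group. The SLC7A11 call in TAZi was lost without each of the 4 libraries in turn (log2 fold change -0.89 to -0.55) and when effective lengths were used as offsets (-0.54, adjusted p = 0.086). In the YAPi arm SLC7A11 was at 837.4 and 2049.6 under ETH and 441.4 and 1138.2 under TAM, lower under TAM within each replicate number but with overlapping groups, and it was not called (-0.86 ± 0.88, adjusted p = 1, DESeq2). It was called with the replicate number as a block (adjusted p = 3.6e-08, DESeq2), although the labels do not say that numbers pair libraries.

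TXNRD1, which reduces thioredoxin, was lower under TAM than under ETH in every library of all 5 arms. In Ctrli the counts were 3068.9 and 2916.7 under ETH and 1661.4 and 1751.9 under TAM, 1.74-fold lower. In TAZi they were 3572.1 and 3769.6 against 1933.7 and 2251.5, a 1.76-fold fall (adjusted p = 8.3e-11, DESeq2) that held without any single library. In JUNBi they were 5443.5 and 4608.8 against 2390.3 and 2051.1, a 2.25-fold fall (adjusted p = 7.7e-05, DESeq2). edgeR did not call the JUNBi change (adjusted p = 0.067), nor did DESeq2 without TAM replicate 1 (log2 fold change -1.27) or TAM replicate 2 (-1.07). In YAPi (-0.88 ± 0.44) and STAT3i (-0.27 ± 0.17) TXNRD1 was not called (adjusted p = 0.38 and 1, DESeq2). With the replicate number as a block it was called in YAPi (adjusted p = 2.6e-20, DESeq2). SRXN1, which repairs over-oxidized peroxiredoxins, had counts of 990.1 and 948.8 under ETH and 726.0 and 732.7 under TAM in Ctrli (log2 fold change -0.40 ± 0.15), and it was called in none of the other arms. Its fold changes there ran from -0.42 ± 0.15 in TAZi (adjusted p = 0.058, DESeq2) to 0.00 ± 0.25 in JUNBi.

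NQO1, a quinone reductase often used as the reference target of NRF2, had counts of 5731.8 and 5638.6 under ETH and 2752.2 and 2713.8 under TAM in Ctrli, 2.06-fold lower. In TAZi NQO1 was at 6738.5 and 7141.8 under ETH against 3398.5 and 4281.3 under TAM, a 1.81-fold fall (adjusted p = 1.6e-11, DESeq2) that held without any single library. In YAPi NQO1 was at 7225.5 and 13122.3 under ETH and 4745.9 and 8327.3 under TAM, lower under TAM within each replicate number. The groups overlapped and there was no call (-0.63 ± 0.57, adjusted p = 0.98, DESeq2). In STAT3i its fold change was -0.52 ± 0.17 and in JUNBi -0.69 ± 0.23, neither called (adjusted p = 0.12 and 0.095, DESeq2), although the libraries of the 2 treatments did not overlap in either arm. With the replicate number as a block NQO1 was called in YAPi, STAT3i and JUNBi (adjusted p = 1.5e-13, 0.0011 and 0.00012, DESeq2). The labels do not say that numbers pair libraries. HMOX1, the inducible heme oxygenase, went the other way. Its counts were 37.6 and 41.5 under ETH and 66.5 and 55.3 under TAM in Ctrli, and TAM was above ETH in all 5 arms. The increase passed the test in TAZi, at 47.1 and 53.3 under ETH against 132.0 and 139.3 under TAM (2.7-fold, adjusted p = 0.0052, DESeq2). That call was lost without each of the 4 libraries (log2 fold change 1.35 to 1.53) and with effective length offsets (1.29, adjusted p = 0.029). In YAPi, HMOX1 was at 50.8 and 166.6 under ETH and 190.4 and 250.1 under TAM, and its log2 fold change of 1.03 ± 0.81 became 2.11, with an adjusted p of 3.1e-05, without ETH replicate 2.

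ME1, the cytosolic malic enzyme, was called for TAM in no arm, with fold changes between -0.11 ± 0.28 (JUNBi) and 0.12 ± 0.18 (Ctrli) on the log2 scale. NFE2L2 was called in no arm either. Its counts in Ctrli were 763.2 and 728.6 under ETH and 798.7 and 738.8 under TAM, and its fold changes ranged from 0.04 ± 0.27 in JUNBi to 0.18 ± 0.22 in STAT3i. Over all 20 ER-Src libraries NFE2L2 ranged from 611.2 to 919.1 normalized counts, ME1 from 494.6 to 1044.0 and HMOX1, relative to its level the widest of the 3, from 21.6 to 250.1.

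Counted over the arms, 4 of the 9 members passed the threshold in Ctrli beside 6.21% of all genes tested, and nothing is read from that count. GCLC is a description in the other arms too, and it is among the members counted in YAPi, TAZi and JUNBi. In YAPi 1 of 9 passed, which is GCLC, beside 4.5%, in TAZi 5 of 9 beside 7.13%, in JUNBi 2 of 9 beside 2.13% and in STAT3i 0 of 9 beside 0.793%. The members called were lower except HMOX1. In YAPi 1 of 9 fell beside 1.13% of all genes, and in TAZi 4 of 9 beside 2.75%. In JUNBi 2 of 9 fell beside 0.73%. GCLC, chosen for its fall with tamoxifen, is counted in each arm and is the only member counted in YAPi. No direction is therefore read from these counts. Leaving out single libraries moved these counts to 1 or 2 in YAPi, 3 in TAZi and 0 to 3 in JUNBi, and the libraries are those named above and JUNBi ETH replicate 2, without which NQO1 was called in JUNBi (-0.77 on the log2 scale). In JUNBi edgeR called none of the 9, and without either TAM library the count was 0. Of the 8 members with a p given in STAT3i, SLC7A11 and NQO1 had an unadjusted p under 0.05, and edgeR called 0 of 9 there. The members' median log2 fold changes were -0.34 for YAPi, -0.42 for TAZi, -0.25 for STAT3i and -0.11 for JUNBi, beside -0.01, -0.01, -0.02 and -0.01 over all genes tested.

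**Figure D1:**
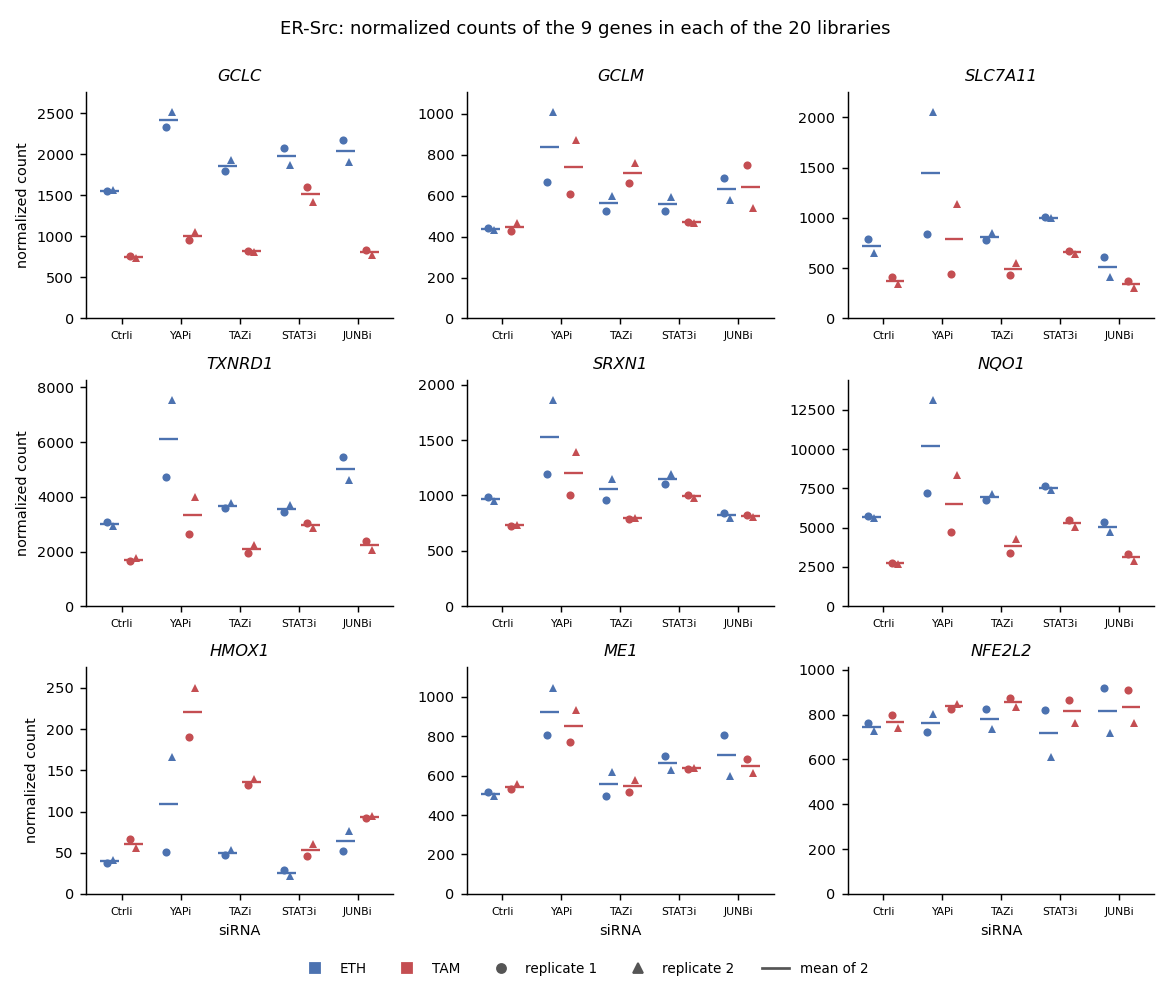
Normalized counts (vertical axis, starting at 0) of each of the 9 genes in the 20 ER-Src libraries by siRNA (horizontal axis), with ETH in blue, TAM in red, replicate 1 as circles, replicate 2 as triangles and the mean of the 2 as a bar. GCLC and TXNRD1 lie lower under TAM in all 5 siRNA arms, HMOX1 lies higher, and the YAPi triangles lie above the YAPi circles for all 9 genes.

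**Figure D2:**
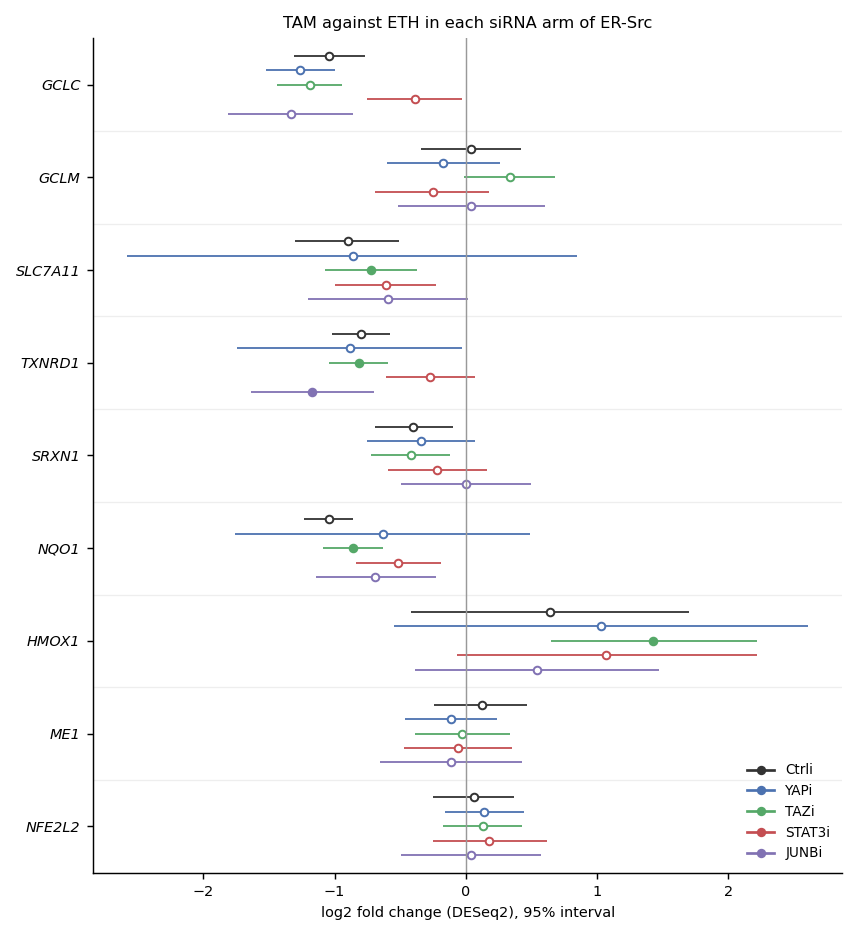
Log2 fold change of TAM against ETH (horizontal axis) with its 95% interval for each of the 9 genes in the 5 siRNA arms of ER-Src. Filled points passed an adjusted p of 0.01 (DESeq2), and open points did not or were given no test (all genes in Ctrli, and GCLC in every arm). GCLC lies between -1.33 and -0.39 in the 5 arms, and NFE2L2 lies between 0.04 and 0.18.

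Knockdown of YAP gave higher levels of several of these genes in both treatments. The comparisons under TAM share the Ctrli TAM libraries with the readings by which the genes were chosen. Under ETH, 4 of 9 members rose in YAPi against Ctrli (GCLC, GCLM, SRXN1 and ME1) beside 5.11% of all genes tested that rose and 11.6% called in either direction. Under TAM, 5 of 9 rose (GCLM, TXNRD1, SRXN1, HMOX1 and ME1) beside 5.27% that rose and 10.7% called. No member fell in either, and all 9 fold changes were above 0. Without YAPi replicate 2, 2 of 9 were called under ETH and 2 of 9 under TAM, and without either control library 0 under ETH and 1 under TAM. By edgeR 4 of 9 were called under ETH and 2 of 9 under TAM. The 2 comparisons use different libraries, but YAPi replicate 2 was the higher library in both. The members' median log2 fold change was 0.86 under ETH and 0.74 under TAM, beside 0.00 and 0.01 over all genes tested.

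Within glutathione synthesis, GCLM rose from 443.6 and 434.6 in Ctrli to 669.0 and 1006.7 in YAPi under ETH, 1.89-fold (adjusted p = 9.7e-05, DESeq2). Under TAM it rose from 428.8 and 468.7 to 609.8 and 871.0, 1.67-fold (adjusted p = 0.0065, DESeq2). Both YAPi libraries were above both controls in each treatment. Without YAPi replicate 2 the GCLM fold change was 0.62 under ETH and 0.46 under TAM on the log2 scale and neither was called, and both calls were also lost without either control library (0.69 to 0.93). GCLC rose 1.55-fold under ETH (adjusted p = 3.3e-06, DESeq2), from the Ctrli counts above to 2336.6 and 2511.0. This rise depended on gene length: with effective length offsets the log2 fold change fell from 0.63 to 0.17 and the call was lost (adjusted p = 0.44). It was also lost without either Ctrli ETH library (0.62 and 0.63). Under TAM GCLC was 0.44 ± 0.15 higher on the log2 scale and not called (adjusted p = 0.034, DESeq2). SLC7A11 was at 837.4 and 2049.6 under ETH in YAPi, and its log2 fold change against Ctrli was 1.00 ± 0.62 (adjusted p = 0.3, DESeq2). It was called without YAPi replicate 1 (adjusted p = 1.4e-11), and likewise under TAM (adjusted p = 1.3e-07).

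TXNRD1 rose under TAM from 1661.4 and 1751.9 in Ctrli to 2655.9 and 3976.8 in YAPi, 1.96-fold (adjusted p = 1.8e-06, DESeq2). The call was lost by edgeR (adjusted p = 0.012) and without either control library (log2 fold change 0.95 and 1.02). Under ETH the log2 fold change of TXNRD1 was 1.02 ± 0.33, just outside the threshold (adjusted p = 0.015, DESeq2) and inside it by edgeR (adjusted p = 0.0085), without YAPi replicate 1 (1.31) and without YAPi replicate 2 (0.66). SRXN1 rose 1.56-fold under ETH (adjusted p = 0.0043, DESeq2), to 1193.7 and 1860.8, and 1.66-fold under TAM (adjusted p = 0.0014, DESeq2), to 1004.2 and 1394.7. Both SRXN1 calls were lost by edgeR (adjusted p = 0.038 and 0.018), without YAPi replicate 2 (0.31 and 0.48 on the log2 scale) and without either control library (0.61 to 0.75).

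HMOX1 gave the largest called rise among the members in YAPi under TAM, from 66.5 and 55.3 to 190.4 and 250.1, 3.62-fold (adjusted p = 5e-06, DESeq2), with the call lost without YAPi replicate 2 (1.66 on the log2 scale, adjusted p = 0.11). ME1 rose 1.81-fold under ETH (adjusted p = 2e-05, DESeq2), from 515.9 and 494.6 to 804.3 and 1044.0. Under TAM it rose 1.58-fold (adjusted p = 0.0027, DESeq2), from 532.9 and 554.6 to 769.9 and 931.7. The ME1 call under ETH was lost without YAPi replicate 2 (0.68) and without either control (0.88 and 0.82), and that under TAM without any of the 4 libraries (0.52 to 0.81). NQO1 in YAPi reached 7225.5 and 13122.3 under ETH and 4745.9 and 8327.3 under TAM. Its log2 fold change under TAM was 1.27 ± 0.40 (adjusted p = 0.013, DESeq2), and it was called both without YAPi replicate 1 (1.64) and without YAPi replicate 2 (0.81). NFE2L2 differed from Ctrli by 0.02 ± 0.15 under ETH and 0.13 ± 0.16 under TAM, neither called (adjusted p = 0.96 and 0.69, DESeq2).

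Knockdown of TAZ gave calls under TAM only, which does not show that the treatments differ. Under TAM, 2 of 9 rose (GCLM and NQO1) beside 1.75% of all genes tested that rose and 3.42% called, and under ETH 0 of 9 were called beside 5.24%. For TAZi and JUNBi too, the reference under TAM is the Ctrli TAM libraries of the readings that chose the genes. A rise against them is therefore not independent of that choice. In the ETH comparison GCLC, TXNRD1 and NQO1 had an unadjusted p under 0.05, and edgeR called 0. GCLM rose under TAM to 661.4 and 760.8, 1.59-fold (adjusted p = 0.0053, DESeq2), and NQO1 to 3398.5 and 4281.3, 1.41-fold (adjusted p = 0.0036, DESeq2). edgeR called neither (adjusted p = 0.015 and 0.043). The GCLM call was lost without any of the 4 libraries (0.57 to 0.77 on the log2 scale), and the NQO1 call without TAZi replicate 2 (0.32), without Ctrli replicate 1 (0.52), without Ctrli replicate 2 (0.48) and with effective length offsets (0.43). Knockdown of JUNB gave 0 of 9 called in either treatment, beside 6.9% under TAM and 2.8% under ETH. GCLM and TXNRD1 under TAM, and TXNRD1 under ETH, had an unadjusted p under 0.05, and edgeR called 0 of 9 in both. TXNRD1 in JUNBi under ETH, at 5443.5 and 4608.8 against 3068.9 and 2916.7, was 0.73 ± 0.22 higher on the log2 scale (adjusted p = 0.025, DESeq2), and it was called without JUNBi replicate 1 (0.60) and without JUNBi replicate 2 (0.86). With effective length offsets GCLM was called in JUNBi under TAM (0.78, adjusted p = 0.006), where the fold change without them was 0.55 ± 0.21 (adjusted p = 0.072).

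Knockdown of STAT3 under TAM is one of the readings that chose the genes. GCLC was at 764.9 and 736.8 in Ctrli and 1608.0 and 1417.3 in STAT3i, 2.04-fold higher (log2 fold change 1.03 ± 0.15). NQO1 went from 2752.2 and 2713.8 to 5504.8 and 5064.4 (0.97 ± 0.12), TXNRD1 from 1661.4 and 1751.9 to 3050.4 and 2871.4 (0.82 ± 0.13) and SLC7A11 from 415.0 and 339.7 to 672.4 and 642.4 (0.81 ± 0.20). For these 4 genes the STAT3i libraries lay above the Ctrli libraries, and in Ctrli their TAM libraries lay below their ETH libraries. The same held for SRXN1, at 1005.2 and 977.6 in STAT3i against 726.0 and 732.7 in Ctrli. ME1 also lay above Ctrli in STAT3i (634.6 and 638.0 against 532.9 and 554.6) but was not lower under TAM in Ctrli. The 2 comparisons share the Ctrli TAM libraries. Of the 9 members 4 passed the threshold beside 8.22% of all genes tested, and nothing is read from that count. SRXN1 was 0.46 ± 0.16 higher, while GCLM (0.09 ± 0.20), ME1 (0.25 ± 0.18), NFE2L2 (0.10 ± 0.17) and HMOX1 (-0.18 ± 0.50) were closer to 0.

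Under ETH none of the 9 members was called in STAT3i, beside 0.189% of all genes tested. GCLC was at 2081.1 and 1870.6 against 1553.8 and 1561.0 in Ctrli (0.35 ± 0.17 on the log2 scale). NQO1 was at 7663.2 and 7403.4 against 5731.8 and 5638.6 (0.42 ± 0.15, adjusted p = 0.7, DESeq2), and SLC7A11 at 1012.6 and 994.4 against 785.5 and 646.7 (0.50 ± 0.20, adjusted p = 1). SLC7A11 and NQO1 had an unadjusted p under 0.05, and edgeR called 0. Of the others, GCLM (0.36 ± 0.22), ME1 (0.40 ± 0.21) and HMOX1 (-0.64 ± 0.65) lay farther from 0 under ETH than under TAM, and the values of TXNRD1 and SRXN1 were 0.26 ± 0.16 and 0.26 ± 0.18. NQO1 was called without STAT3i replicate 2 (0.45, adjusted p = 0.0094).

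**Figure D3:**
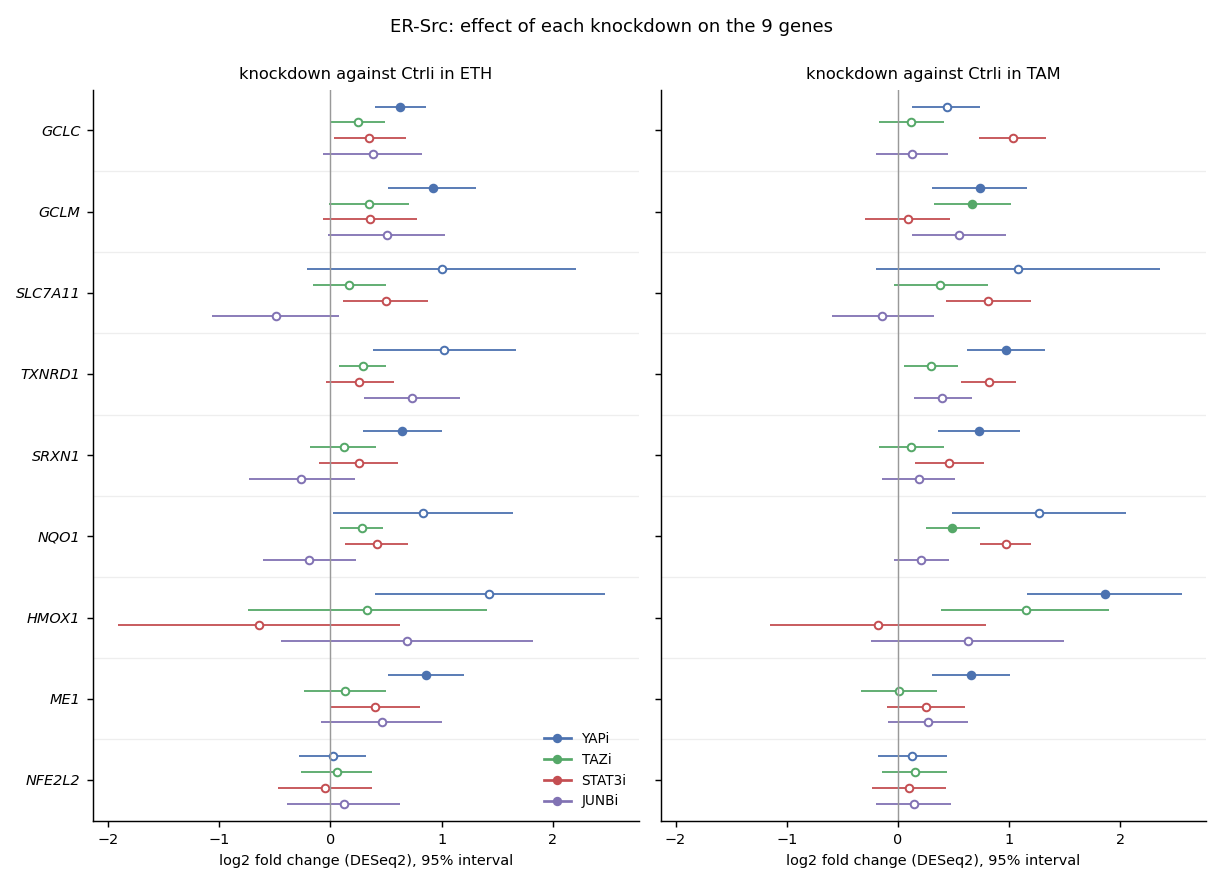
Log2 fold change of each ER-Src knockdown against Ctrli (horizontal axis) with its 95% interval, under ETH (left) and TAM (right), for the 9 genes. Filled points passed an adjusted p of 0.01 (DESeq2), and open points did not or were given no test (all genes in STAT3i under TAM, and GCLC in STAT3i under ETH). YAPi has 4 filled points under ETH and 5 under TAM, and STAT3i lies near 1 under TAM for GCLC and NQO1 against 0.35 and 0.42 under ETH.

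The difference of a knockdown effect between TAM and ETH was fitted as an interaction, given without a p because it contains the Ctrli comparison of TAM with ETH. No member passed the threshold in any of the 4 interactions by DESeq2 or by edgeR, beside 0.498% of all genes tested for YAPi, 1.6% for TAZi, 1.34% for STAT3i and 0.288% for JUNBi, and nothing is read from those counts. The STAT3i effect was 0.66 ± 0.21 larger under TAM for GCLC (log2 scale), or 1.17 with effective length offsets, and 0.54 ± 0.17 larger for NQO1 and 0.54 ± 0.18 for TXNRD1. For the YAPi effect the 95% interval of the difference was -0.54 to 0.13 for GCLC and -0.78 to 0.39 for GCLM.

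In MDA-MB-231 set 1 most members were higher in the knockdowns than in the controls, a contrast in which library type and knockdown cannot be told apart. By count, 5 of 9 members passed in YAPi, 7 in TAZi, 8 in YAPi_TAZi and 7 in TEADi, beside 24.4%, 32.8%, 35.6% and 27.5% of all genes tested. All of these were higher except TXNRD1 in TEADi. GCLC rose from 74.2 and 71.0 in Ctrli to between 110.6 and 223.2 in the 8 knockdown libraries, and NQO1 from 562.1 and 550.0 to between 1064.5 and 2536.6. SLC7A11 rose from 154.8 and 146.9 to between 267.3 and 625.4. HMOX1 rose 11.6-fold in TAZi, 7.14-fold in YAPi_TAZi and 7.53-fold in TEADi, and those calls and the 4 of NQO1 held without any single library. Other calls rested on the controls. Without either control, GCLC lost its call in YAPi, TAZi and TEADi (0.73 to 1.02 on the log2 scale), SLC7A11 in YAPi (0.98 and 1.05), GCLM in TEADi (0.83 and 0.89), SRXN1 in TAZi and TEADi (0.46 to 0.68), and ME1 and NFE2L2 in YAPi_TAZi (0.57 to 1.06). Leaving out knockdown replicate 2 ended the calls of GCLC (0.74) and SLC7A11 (0.77) in YAPi, GCLC (0.53) and SRXN1 (0.36) in TAZi, ME1 in YAPi_TAZi (0.86) and GCLM in TEADi (0.49), and without TEADi replicate 1 ME1 was called there (0.82). With TMM scaling the median gene shifted by -0.14 to -0.10 on the log2 scale in these 4 comparisons, and GCLC and SRXN1 were then no longer called in TAZi (0.69 and 0.39). The TXNRD1 fall in TEADi, -0.65 ± 0.11 (adjusted p = 6.2e-08, DESeq2), was lost with effective length offsets (-0.43, adjusted p = 0.053) and without Ctrli replicate 2 (-0.63).

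A comparison of each knockdown with the other 3 avoids those controls. The 8 knockdown libraries are alike in their share of RNAs without a poly(A) tail next to the controls, but replicates 1 and 2 differ in read length in every knockdown. It places 3 members apart, each in another knockdown, by tests that allow for the replicate number. TXNRD1 was at 802.7 and 889.2 in TEADi and between 2475.5 and 2825.7 in the other 6 knockdown libraries. It was 3.1-fold lower in TEADi than in the others (log2 fold change -1.63 ± 0.11, adjusted p = 1.3e-46, DESeq2). This call held without any single library, by edgeR and under each other setting. The TEADi targets themselves differed in this comparison. TEAD1 was lower (-1.23 ± 0.21 on the log2 scale), as were TEAD2 (-3.39 ± 0.83) and TEAD4 (-4.78 ± 1.53) at low counts. TEAD3 was not called (-0.27 ± 0.33, adjusted p = 0.79, DESeq2). TXNRD1 was the 1 member called there, beside 1.87% of all genes tested, and SRXN1, at 531.3 and 482.7 in TEADi against 325.9 to 463.9 in the others, was 0.41 ± 0.20 higher and not called (adjusted p = 0.29, DESeq2).

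HMOX1 was at 101.5 and 70.6 in YAPi, against 566.6 and 478.3 in TAZi, 334.4 and 307.6 in YAPi_TAZi and 370.8 and 304.6 in TEADi. It was 4.64-fold lower in YAPi than in the others (adjusted p = 1.1e-09, DESeq2), the 1 member called beside 0.619%. edgeR did not call it (adjusted p = 0.13), nor did DESeq2 without YAPi replicate 2 (-2.06 on the log2 scale, adjusted p = 0.039). The controls lay at 40.0 and 47.2, below all knockdown libraries. NQO1 was at 2083.9 and 2536.6 in YAPi_TAZi and between 1064.5 and 1590.3 in the other 6 libraries, 1.71-fold higher (adjusted p = 0.002, DESeq2), the 1 member called beside 1.13%. That call was lost by edgeR (adjusted p = 0.079) and without either YAPi_TAZi library (0.84 and 0.70) or either YAPi library (0.77 and 0.76). In TAZi 0 of 9 members differed from the other knockdowns beside 0.32%, with HMOX1 at an unadjusted p under 0.05 and 0 called by edgeR. NFE2L2 in YAPi_TAZi, at 409.8 and 369.1, lay above the other 6 libraries (214.0 to 315.8) but was not called (0.54 ± 0.20, adjusted p = 0.14, DESeq2).

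**Figure D4:**
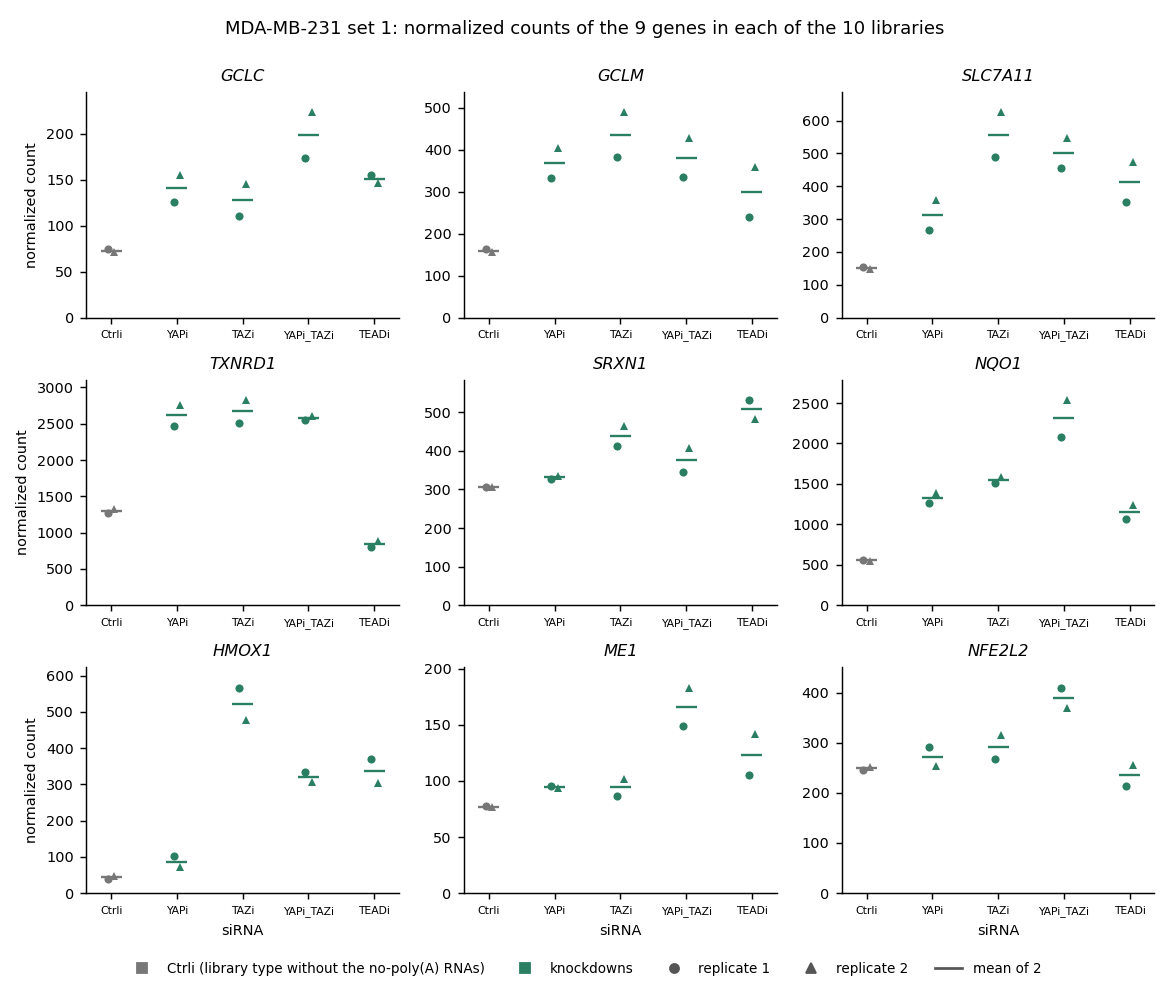
Normalized counts (vertical axis, starting at 0) of the 9 genes in the 10 MDA-MB-231 set 1 libraries by siRNA (horizontal axis), with the controls in grey because they are another library type, the knockdowns in green, replicate 1 as circles, replicate 2 as triangles and the mean of the 2 as a bar. TXNRD1 lies at 802.7 and 889.2 in TEADi, HMOX1 at 101.5 and 70.6 in YAPi and NQO1 at 2083.9 and 2536.6 in YAPi_TAZi, each apart from the other knockdowns.

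In MDA-MB-231 set 2, where controls and knockdowns are of 1 library type, no member was called in JUNBi beside 3.41% of all genes tested or in STAT3i beside 0.497%, and edgeR called 0 in both. NQO1 was at 2831.9 and 2362.7 in JUNBi against 3422.4 and 3881.1 in Ctrli (-0.49 ± 0.18 on the log2 scale, adjusted p = 0.073, DESeq2). HMOX1 (0.67 ± 0.30) and NFE2L2 (0.78 ± 0.34) also had an unadjusted p under 0.05 in JUNBi. With STAT3i no member with a p given was under 0.05. NQO1 was at 3617.9 and 3674.9 there, a log2 fold change of 0.00 with a 95% interval of -0.32 to 0.32. GCLC was at 68.9 and 27.3 in STAT3i against 32.7 and 22.5 in Ctrli, a log2 fold change of 0.80 ± 0.77 over overlapping libraries. At so few counts a doubling of GCLC could not be seen. DESeq2 gave 6 of the 9 members an adjusted p in JUNBi and 2 of 9 (TXNRD1 and NQO1) in STAT3i, because its filter on low counts set the others aside.

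Beyond the 9 members, 82 genes in 6 lists covered NRF2 regulators, glutathione use, thioredoxin and peroxiredoxins, NADPH supply, heme, iron and quinone handling, and detoxification. The lists were chosen with earlier results of these data known, so their counts are not independent of these data. With TAM, 2 of 82 rose and 4 fell in YAPi beside 4.5% of all genes called, 4 rose and 15 fell in TAZi beside 7.13%, none was called in STAT3i beside 0.793%, and 1 fell in JUNBi beside 2.13%. In TAZi GSR, which recycles oxidized glutathione, fell from a mean normalized count of 1703.3 to 801.1 (-1.09 ± 0.14 on the log2 scale, adjusted p = 7e-14, DESeq2). SLC3A2, the heavy chain that pairs with SLC7A11 in the cystine transporter, fell there from 8194.1 to 3148.3 (-1.38 ± 0.11, adjusted p = 3.3e-36, DESeq2). GLRX, glutaredoxin, rose from 216.7 to 732.5 (1.75 ± 0.19, adjusted p = 1.2e-17, DESeq2). These 3 calls held under every setting tried, and GSR was singled out in TAZi after its values were seen. The same 3 genes were called in the same directions in YAPi (-0.70 ± 0.16, -0.69 ± 0.17 and 1.11 ± 0.20), where edgeR did not call GSR or SLC3A2 (adjusted p = 0.035 and 0.11) and each call was lost without at least 2 of the 4 libraries (-0.76 to -0.52 for GSR, -0.47 and -0.46 for SLC3A2, 0.89 and 1.05 for GLRX). In Ctrli, without a test, AKR1C1 (-1.21 ± 0.19), SLC3A2 (-1.13 ± 0.10) and PIR (-0.97 ± 0.24) were the lowest of the lists and GLRX (1.08 ± 0.22) was the highest.

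Against Ctrli under TAM, 19 of the 82 list genes were higher and 3 lower in YAPi beside 10.7% of all genes called, 9 and 1 in TAZi beside 3.42%, and 5 and 6 in JUNBi beside 6.9%. In STAT3i, one of the readings that chose the members, 12 passed the threshold higher and 3 lower beside 8.22%, and nothing is read from those counts. The other comparisons under TAM use the same Ctrli TAM libraries. Under ETH the counts were 11 and 5 in YAPi beside 11.6%, 9 and 2 in TAZi beside 5.24%, 0 and 2 in JUNBi beside 2.8%, and 0 and 0 in STAT3i beside 0.189%. By list, the median log2 fold change in YAPi under TAM was -0.03 for glutathione use and 0.04 for thioredoxin and peroxiredoxins. It was 0.15 for NRF2 regulators, 0.16 for heme, iron and quinone handling and 0.19 for NADPH supply. The detoxification list, described next, had the highest median there. Of the 15 genes of the detoxification list, 8 rose in YAPi under TAM beside 5.27% of all genes that rose, and 6 under ETH beside 5.11%. None fell, and the medians were 1.08 and 0.71 on the log2 scale beside 0.01 and 0.00 over all genes tested. Without YAPi replicate 2 the counts were 4 and 3, without either control 5 and 4 under TAM and 1 and 1 under ETH, and by edgeR 6 and 3. AKR1B10, an aldo-keto reductase, rose 10.2-fold under ETH, from a mean normalized count of 18.6 to 191.1 (adjusted p = 1.6e-10, DESeq2), and that call held under every setting tried. AKR1C2, another, rose 4.53-fold under TAM (adjusted p = 1.3e-11, DESeq2) and 4.21-fold under ETH (adjusted p = 0.00039), with both calls lost without either control (2.04 to 2.24). In TAZi AKR1C2 rose 6.4-fold under TAM, from 181.4 to 1162.9 (adjusted p = 2.8e-38, DESeq2), and 3.57-fold under ETH, from 337.9 to 1216.2 (adjusted p = 9.9e-16), and both calls held under every setting tried. AKR1C1 rose with TAZi as well, 2.62-fold under TAM and 2.22-fold under ETH, but fell with JUNBi under ETH, from 705.3 to 259.0 (adjusted p = 9.4e-06, DESeq2). The AKR1C1 rise under TAM was lost without TAZi replicate 2 (1.13), and its fall in JUNBi was lost by edgeR (adjusted p = 0.039) and without either control (-1.44 and -1.48). The AKR1C genes are close paralogs, so the division of reads between them is uncertain.

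SLC3A2 also differed in level by STAT3i between treatments, given without a test because it rests on the Ctrli and STAT3i libraries under TAM by which the members were chosen. Its mean normalized count was 6782.4 ± 462.7 in Ctrli and 6902.9 ± 978.1 in STAT3i under ETH, but 3084.3 ± 141.6 and 7142.9 ± 605.1 under TAM (SD, n = 2), an interaction of 1.18 ± 0.20 (SE) on the log2 scale. Among the set 1 knockdowns 2 list genes were called in YAPi_TAZi (SQSTM1 and IDH1, higher), 2 in TEADi (GPX1 and GPX4, higher) and none in YAPi or TAZi, and edgeR called none of these 4. In set 2, GPX3, an extracellular glutathione peroxidase, was lower in JUNBi, at a mean of 861.9 against 2846.0 (-1.72 ± 0.20, adjusted p = 2.8e-14, DESeq2). This call held without any single library but not by edgeR (adjusted p = 0.027), which called no gene at all in that comparison.

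Over the 20 ER-Src libraries, the genes most like GCLC were CAV1 and GSR (Pearson r = 0.97 each), NLN and IL20RB (0.94 each) and NIPAL3 (0.93), of 6389 protein-coding genes with a mean of at least 5 TPM. The correlation is of log2(TPM + 1), and the points share libraries and the differences in TPM scale and in GCLC length described above. Those least like it were SOCS3 (-0.95), SBNO2 and ITPKC (-0.94 each) and IL4R and GALNT2 (-0.93 each). STAT3 itself stood at -0.76, and it was the siRNA target in the STAT3i libraries. The libraries include the tamoxifen and STAT3 siRNA comparisons by which the genes were chosen, so all of these correlations are descriptions. Among the members TXNRD1 (0.87) and NQO1 (0.81) were closest to GCLC, followed by SRXN1 (0.69), NFE2L2 (0.59), ME1 (0.43) and GCLM (0.32), and SLC7A11 and HMOX1 were below the level required. Only GSR of the 10 genes named at either end belongs to the lists above.

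Some readings of single genes carry an uncertainty from the annotation. On GRCh38, GCLC lies at chr6:53497341-53616970, GCLM at chr1:93885199-93909456, SLC7A11 at chr4:138164097-138242349, SRXN1 at chr20:646615-653200, NQO1 at chr16:69706996-69726668, ME1 at chr6:83210402-83431051 and NFE2L2 at chr2:177218667-177392756, all on the minus strand. TXNRD1 at chr12:104215779-104350307 and HMOX1 at chr22:35380361-35394214 are on the plus strand. GCLC, SLC7A11, TXNRD1 and NQO1 each overlap at least 1 long non-coding RNA on the opposite strand, and NFE2L2 overlaps HNRNPA3 and AGPS there. The sources used here do not state whether reads were counted by strand, so reads of these pairs may not be separable. TXNRD1 and SRXN1 each overlap another protein-coding gene on the same strand, which for TXNRD1 is EID3.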

How the data were processed

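For all 36 libraries the labels and the study's methods name a kit for ribosome profiling and total RNA, yet the set 1 controls and all of set 2 held almost none of the RNAs without a poly(A) tail that the other libraries held. The authors aligned reads with STAR to hg38 and GENCODE v30, keeping up to 20 alignments per read, and deposited RSEM tables of expected counts and of TPM for each gene and library. A gene's length in those tables weights its isoforms by their estimated share, so TPM moves with isoform use as well as with reads, and multiply aligned reads are divided between paralogs. Whether counting used strand is not given in the sources used here.

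Expected counts of 60725 genes were rounded to whole numbers. Rows that name no gene held 4.24e-05% to 0.109% of counts and were left out. Groups came from the labels. DESeq2 1.42.0 (Wald test, R 4.3.3) was fitted to the libraries of each comparison, 27 in all, and a gene was called at a Benjamini-Hochberg adjusted p under 0.01 over all genes tested. YAPi_TAZi against Ctrli in set 1 used a local dispersion trend. Errors are SE of the log2 fold change unless named SD. In the set 1 comparisons of each knockdown with the others the replicate number was a term, because same-numbered libraries deviated together (r = 0.681 to 0.719 over 6 pairs) and differed in read length. Alternatives were edgeR 4.0.16 (quasi-likelihood), TMM scaling, a mean count of at least 10, the replicate block, leaving out each library and, added after the data were seen, effective length offsets. On simulated counts 93.5% of 200 genes changed by 1.5 on the log2 scale were recovered for STAT3i against Ctrli in TAM (31049 genes), and 69.5% for JUNBi in set 2 (23373 genes). Unchanged genes called were 0 and 11 there. They were 3 for the YAPi interaction, 13 for YAPi against the set 1 controls and 17 for YAPi against the other set 1 knockdowns. The genes changed in the simulation had a mean count of at least 50, so smaller changes and lower counts were not covered.

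The 9 members and the lists were chosen with earlier results of these data known. Named from the lists were called genes whose normalized counts averaged 50 or more, at most 3 per direction and comparison, and from the likeness to GCLC the 5 genes at each end. Sequences are from RefSeq start sites and GRCh38, and gene positions and overlaps from GENCODE v44.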

Additional observations from a re-analysis of the deposited data

Results flagged for a closer look

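In JUNBi, SRXN1 and NQO1 differed from Ctrli in opposite directions in 1 treatment of ER-Src and in MDA-MB-231 set 2, and none of these changes was called. Both JUNBi libraries lay below both controls for SRXN1 in ER-Src under ETH (log2 fold change -0.26) and above them in set 2 (0.46), but they also lay above them in ER-Src under TAM (0.19). For NQO1 they lay above the controls in ER-Src under TAM (0.21) and below them in set 2 (-0.49), but also below them in ER-Src under ETH (-0.19). The opposition therefore holds for 1 of the 2 treatments in each case, and the difference between the lines was not tested.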

How the results depend on the processing

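With 2 libraries a group, most limits come from single libraries. No called member changed direction under the alternatives run, and 27 of 27 counts of members called stayed within 1.5 times with TMM and with a mean count of at least 10. By edgeR the count went from 2 to 0 for TAM in JUNBi, from 5 to 2 for YAPi under TAM, from 2 to 0 for TAZi under TAM, and from 1 to 0 for YAPi and for YAPi_TAZi against the other set 1 knockdowns. With effective length offsets it went from 5 to 3 for TAM in TAZi, from 2 to 1 for TAZi under TAM, and from 0 to 1 for JUNBi under TAM and for the STAT3i interaction (GCLC). Without single libraries it ran from 1 to 2 for TAM in YAPi, stayed at 3 for TAM in TAZi, and ran from 0 to 3 for TAM in JUNBi. For YAPi it ran from 1 to 6 under TAM and from 0 to 7 under ETH. For TAZi under TAM, STAT3i under ETH, JUNBi under ETH, the STAT3i interaction, and YAPi and YAPi_TAZi against the other knockdowns it ran from 0 to 1. Against the set 1 controls it ran from 3 to 5 for YAPi and from 3 to 8 for TEADi. Fewer libraries leave fewer residual degrees of freedom, and other causes were not tested. The STAT3i interaction and STAT3i under TAM rest on the readings that chose the genes. Nothing is read from their counts or calls, here or below.

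With the replicate number as a block in ER-Src, where the labels do not say that numbers pair libraries and deviations of same-numbered libraries correlated at 0.16 to 0.585 between TAM and ETH of 1 arm but at -0.194 to 0.599 over the interaction designs, counts went from 1 to 4 for TAM in YAPi (SLC7A11, TXNRD1 and NQO1 added), from 0 to 1 for TAM in STAT3i, from 5 to 2 for YAPi under TAM, from 2 to 0 for TAZi under TAM, from 0 to 1 for JUNBi under ETH and from 0 to 2 for the STAT3i interaction. The block also ended the calls of HMOX1 for TAM in TAZi, of SLC7A11 for STAT3i under TAM, of SRXN1 for YAPi under ETH and, against the set 1 controls, of GCLC in YAPi, TAZi and TEADi, SRXN1 in TAZi and GCLM in TEADi, added that of NQO1 for TAM in JUNBi, and changed no other call of a member. No paired analysis was possible in set 2 because its controls are numbered 3 and 4.

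Counts over all genes moved by over 1.5 times in 17 of 27 comparisons by edgeR, fewer in each. They went from 743 to 420 for TAM in YAPi, 124 to 0 in STAT3i and 365 to 46 in JUNBi, from 470 to 195 and 739 to 491 for TAZi under TAM and ETH, from 37 to 0 for STAT3i and 421 to 1 for JUNBi under ETH, and from 78 to 15, 71 to 5, 221 to 56 and 46 to 0 for the YAPi, TAZi, STAT3i and JUNBi interactions. Against the other knockdowns they went from 21 to 0 for YAPi, 34 to 1 for TAZi, 108 to 9 for YAPi_TAZi and 198 to 46 for TEADi, and in set 2 from 272 to 0 for JUNBi and 10 to 0 for STAT3i. Length offsets moved 6 of 27 down (37 to 12 for STAT3i under ETH, 5822 to 3821 for TAZi and 6792 to 4098 for YAPi_TAZi against the set 1 controls, and 21 to 13, 34 to 17 and 198 to 103 for YAPi, TAZi and TEADi against the other knockdowns) and 1 up (71 to 120, TAZi interaction), and TMM moved 1 (37 to 17). The block moved 12 of 21: 976 to 619 and 124 to 204 for TAM in Ctrli and STAT3i, 1550 to 770, 470 to 177 and 1167 to 655 for YAPi, TAZi and STAT3i under TAM, 1713 to 1122, 739 to 404 and 37 to 11 for the same under ETH, 46 to 100 for the JUNBi interaction, and 4049 to 2555, 5822 to 2743 and 4682 to 2955 for YAPi, TAZi and TEADi against the set 1 controls.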
